A study of Rattus norvegicus with 4 samples.

Results

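miR-221 and miR-222 are microRNAs (miRNAs) made from neighbouring hairpins, and their levels were read in rat heart after myocardial infarction (MI). Both were brighter in the MI pool than in the sham pool at day 2 and at day 14, and on each day the value of miR-222 was the higher, as a bound at day 14. The 2 members are the rat probes named rno-miR-221 and rno-miR-222, here miR-221 and miR-222. They are 2 of 348 rat probes on the arrays used at day 2 and 2 of 677 on those used at day 14. They were chosen by their MI minus sham differences at day 2 and day 14 and by the agreement between them, so these values are given as a description and were not tested.

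The hearts came from male Wistar rats. Sham rats had the side of the chest and the pericardium opened, and MI rats had the same opening followed by ligation of the LAD, a main coronary artery of the left heart. Hearts were taken 2 days or 14 days after surgery. Each group was a pool of 3 rats read on 1 array, which gives 4 arrays: sham day 2, MI day 2, sham day 14 and MI day 14. The labelled amount was 1 µg at day 2 and 500 ng at day 14. The labels call the tissue heart without naming scar, border or remote muscle.

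MiRNAs are short RNAs that pair with messenger RNAs, mainly through bases 2 to 8 (the seed), and repress them. A hairpin is cut into an arm from its 5′ side and an arm from its 3′ side. The array's names miR-221 and miR-222, without a suffix, stand for the 3p arms, and for these hairpins a star marks the 5p arm. In blood vessels miR-221 and miR-222 are known to promote growth of smooth muscle cells, in part through the cell cycle inhibitor gene Cdkn1b, and to restrain endothelial cells, in part through the receptor gene Kit.

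The mature sequences, from RefSeq on build GRCr8, show what the members share and where they part. The capitals mark the seed.
rno-miR-221-3p: aGCUACAUugucugcuggguuuc
rno-miR-222-3p: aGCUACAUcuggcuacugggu
rno-miR-221-5p: aCCUGGCAuacaauguagauuuc
rno-miR-222-5p: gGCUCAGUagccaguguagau
The 3p arms share the seed GCUACAU, which only these 2 of the 724 mature rat miRNAs in the RefSeq table hold. They are identical over the first 8 bases and at 11 of the 21 positions compared without gaps. Counted from the 5′ end, with the base of miR-221-3p first, they differ at U9C, G10U, U11G, C12G, U13C, G14U, C15A, U16C, G17U and U20G. A stretch of 6 bases, cugggu, is shared again in the 3′ part. The 5p arms have different seeds and are identical at 5 of 21 positions.

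The hairpins are printed to show the order of the arms, with the mature arms in capitals.
Mir222: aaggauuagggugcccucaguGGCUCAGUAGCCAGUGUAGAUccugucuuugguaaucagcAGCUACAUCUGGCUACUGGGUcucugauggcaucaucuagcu
Mir221: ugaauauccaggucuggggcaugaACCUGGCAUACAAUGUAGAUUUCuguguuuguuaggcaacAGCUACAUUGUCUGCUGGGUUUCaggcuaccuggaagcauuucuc
On GRCr8 Mir222 lies at chrX:6022621-6022723 and Mir221 at chrX:6023182-6023290, both on the plus strand. There are 458 bases between them. Both hairpins lie within the annotated spans of 2 long non-coding RNA genes, LOC120099382 (chrX:5942511-6024221) and LOC120099384 (chrX:6004097-6045038). Exons were not analysed here.

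Each probe was printed as 4 spots on an array. The errors below are SDs over these spots, or the standard error (SE) of a difference built from them, and cover neither variation between rats nor variation between arrays. With 1 array per group no difference has a replicate check, and no test was run. Every array sits on a separate slide, and a slide effect cannot be told apart from a group effect. A newer array design and less RNA were used at day 14, so MI was set against sham only within a day. The scan file of the day 2 sham array carries a mouse prefix in its image name, while the labels name rat. As the only day 2 sham array it enters each day 2 difference. All 5 heart muscle miRNAs looked for (miR-1, miR-133a, miR-133b, miR-208 and miR-499) were detected on all 4 arrays. This detection does not settle the species of the day 2 sham array. Local background had a median of 321 intensity units in sham and 130 in MI at day 2, and of 94 and 100 at day 14. In tissue RNA, more cells of a type and more of a miRNA per cell cannot be told apart.

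At day 2 miR-221 was read well within the scanner's range in both pools. Its sham spots had median foreground intensities from 611 to 966.5 over local backgrounds from 262 to 433. Its MI spots had foregrounds from 1038 to 1424.5 over backgrounds from 108 to 217. All 4 MI spots were brighter than all 4 sham spots, while the surroundings of the spots were darker on the MI array.

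After background correction and quantile normalization of the day's arrays, miR-221 had a level of 9.66 ± 0.25 (SD, 4 spots) on the log2 scale in sham and 10.42 ± 0.20 in MI at day 2. MI was 1.69-fold above sham (log2 difference 0.76, SE 0.16), under the 2-fold used here to call a difference. Normalized MI spots, from 10.21 to 10.67, did not overlap with sham spots, from 9.29 to 9.80.

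miR-222 at day 2 had MI foregrounds from 2326 to 2830 over backgrounds from 107 to 238. Of its sham spots, 3 read from 1383 to 1594, and the fourth read 468 over a local background of 411. That spot lay only 0.55 background SDs above its surroundings, under the 2 SDs used for detection, so 3 of 4 sham spots were detected. The fourth spot set was dim for other probes of this array too, with a median deviation of -1.15 log2 over 166 detected rat probes and a median background of 516 against 279.5 to 349.25 in the other sets.

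The normalized level of miR-222 at day 2 was 10.05 ± 0.90 in sham and 11.46 ± 0.16 in MI, a 2.67-fold difference (log2 1.42, SE 0.46). Leaving out the fourth spot set on both arrays gave 1.10 (SE 0.12), still past 2-fold. The same step moved miR-221 from 0.76 to 0.79 (SE 0.14). With the dim spot included, all normalized MI spots of miR-222, from 11.28 to 11.62, lay above all its sham spots, from 8.71 to 10.58.

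**Figure D1:**
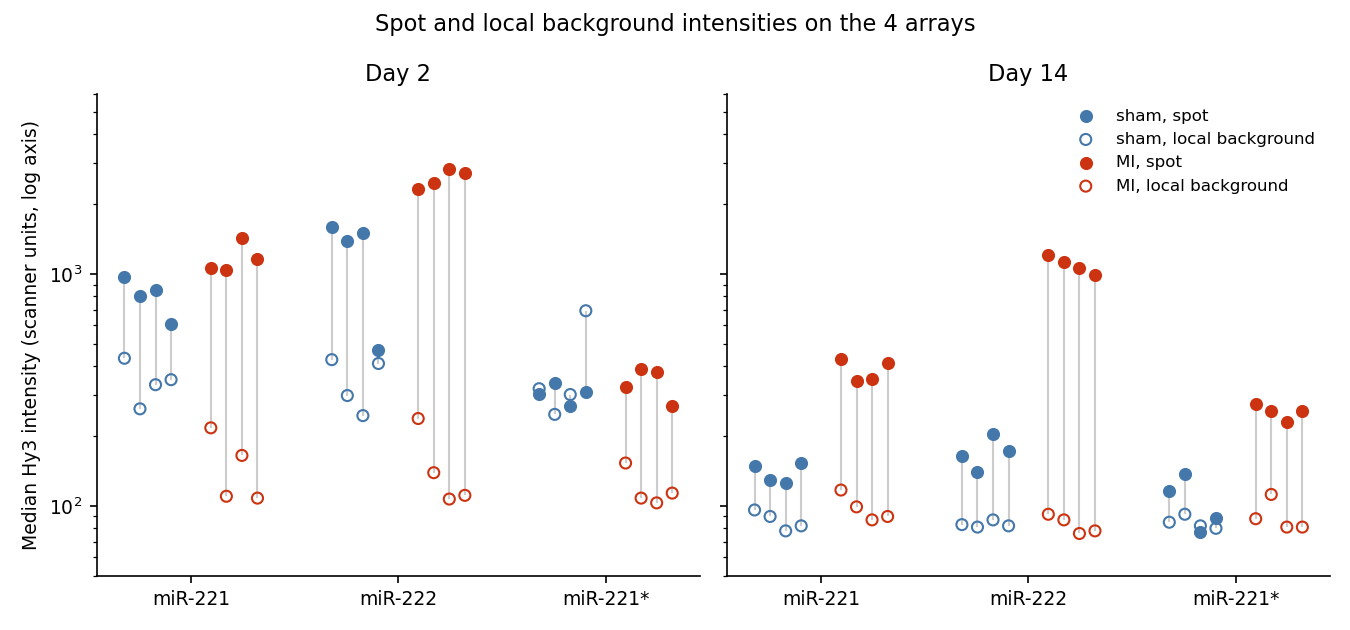
Median intensity of each spot in the Hy3 channel (filled) and of its local background (open) on a log axis, for miR-221, miR-222 and miR-221* on the 4 arrays, in scanner units and before any correction. In sham at day 14 the spots of miR-221 and miR-222 sit close to their backgrounds, and at day 2 the fourth sham spot of miR-222 reads 468 over a background of 411.

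As background for these calls, the MI pool exceeded sham by 2-fold or more for 8 rat miRNAs at day 2 (4.28% of the 187 with a fold), and 2 were lower by as much (1.07%), 10 in either direction (5.35%). Detection in MI only held for 35 of the 201 rat probes detected on either array (17.4%), and 1 of the 35 was past 2-fold (2.86%); neither member was among them. All MI spots lay above all sham spots for 14 of the 187 (7.49%). miR-222 was among the 8 and both members among the 14. These contrasts were used to choose the members, so nothing is read from the counts.

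At day 14 the members were near the limit of detection in sham and clear in MI. miR-221 had sham foregrounds from 126 to 153 over backgrounds from 78 to 96, and 0 of 4 spots were detected. In MI its foregrounds ran from 347 to 431 over backgrounds from 87 to 117, and 4 of 4 spots were detected. In sham all 4 spots were brighter than their surroundings, by 39 to 71 units, but by less than 2 background SDs.

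The level of miR-221 at day 14 was 7.37 ± 0.11 in sham, not well above background, and 8.58 ± 0.11 in MI. The MI pool thus exceeded sham at least 2.31-fold (log2 1.21, SE 0.08). For such a probe the fold is a bound, taken from the MI level against the higher of the sham level and the lowest level among detected probes of the sham array, which was 7.24. An SE given with a bound is that of the difference between the MI and sham levels.

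miR-222 at day 14 had sham foregrounds from 140 to 204 over backgrounds from 81 to 87, with 1 of 4 spots detected. Its MI foregrounds ran from 989 to 1207 over backgrounds from 76 to 92, and 4 of 4 were detected. The normalized level was 7.65 ± 0.19 in sham and 9.93 ± 0.12 in MI, so that the MI level exceeded sham at least 4.87-fold (log2 2.28, SE 0.11). Spots of sham and MI did not overlap for either member.

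At day 14, the MI pool exceeded sham by 2-fold or more for 27 rat miRNAs (11.7% of 230 with a fold), and 8 were lower by as much (3.48%), 35 in either direction (15.2%). All MI spots lay above all sham spots for 105 of the 230 (45.7%), so spots that do not overlap were common on these arrays. Both members were among the 27. Detection in the MI pool alone held for 57 of the 230 (24.8%), and of these 57, 9 (15.8%) were at least 2-fold higher, among them both members.

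**Figure D2:**
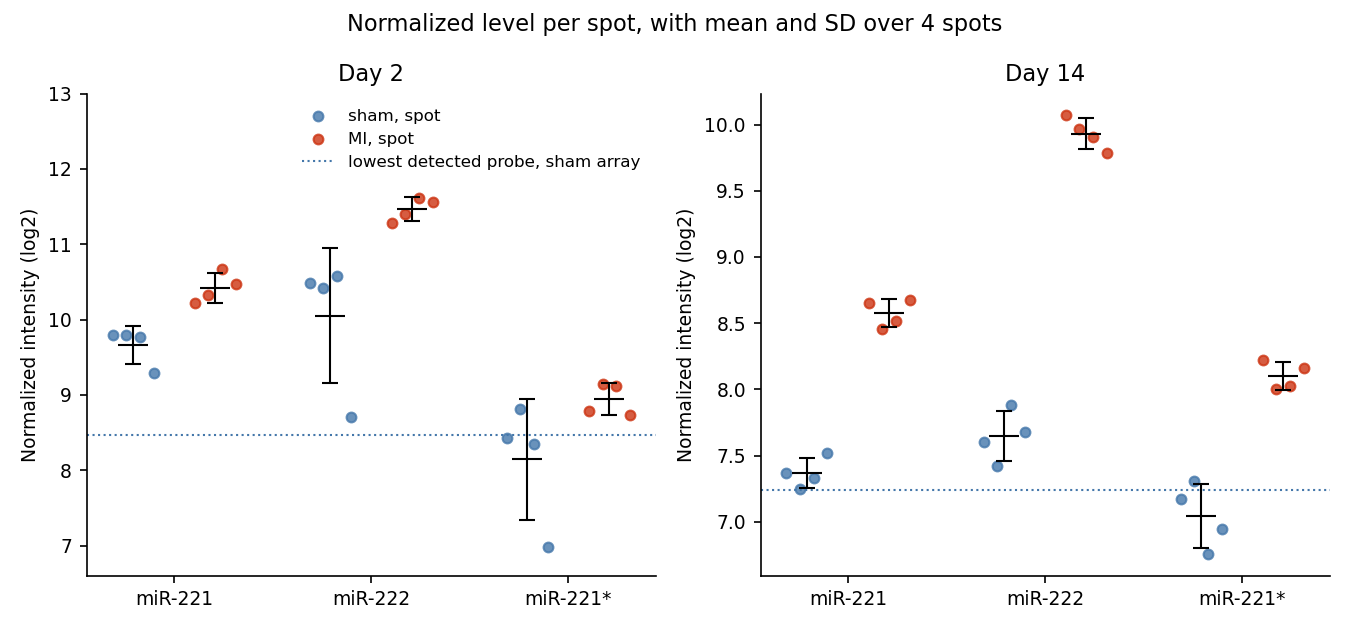
Normalized log2 intensity of each spot for miR-221, miR-222 and miR-221*, with the mean and SD over 4 spots in black; the dotted line is the lowest level among detected probes of the sham array (8.46 at day 2, 7.24 at day 14). The MI spots of miR-221 and miR-222 lie above their sham spots on both days, and the dim sham spot of miR-222 widens its SD to 0.90 at day 2.

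Within the pair the direction was shared, while a difference in size was not settled on either day. At day 2 the log2 difference of miR-222 exceeded that of miR-221 by 0.66 (SE 0.48 over spots), and by 0.31 (SE 0.18) without the dim spot set. At day 14 it exceeded it by 1.08 (SE 0.14), but both values are bounds there, so the size of that gap is not fixed. The gap was above 0 under each of the 15 alternative processings run on each day, from 0.31 to 1.15 at day 2 and from 0.87 to 1.35 at day 14. These are not 15 separate checks. No normalization, centred arrays and spike-in scaling differ only by a shift of whole arrays and gave the same gap, 0.77 at day 2 and 1.24 at day 14. Detection at 3 background SDs left the day 2 gap at 0.66. At day 2 the gap was less than 2 of its spot SEs, with or without the dim set, so the spots do not separate the members there.

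In the order of MI minus sham differences at day 2, miR-222 stood 5th of 187 and miR-221 16th. The neighbours of miR-222 were miR-193 above (1.43, SE 0.68) and miR-31 below (at least 1.21, SE 0.05), and those of miR-221 were miR-142-5p (0.83, SE 0.09) and miR-34a (0.74, SE 0.54). These steps lie within the spot SEs of the values compared, so the order among such neighbours is not resolved.

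At day 14 miR-222 stood 8th of 230 and miR-221 21st. miR-222 lay between miR-140* (2.32, SE 0.05) and miR-193 (2.14, SE 0.03). miR-221 lay between miR-142-3p (1.23, SE 0.05) and miR-497 (at least 1.14, SE 0.09). The step from miR-222 to miR-193 was larger than the spot SE of miR-222, and the steps to the other neighbours were smaller than the spot SE of the member. The value of a member at day 14 is a bound, so its place may lie higher.

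**Figure D3:**
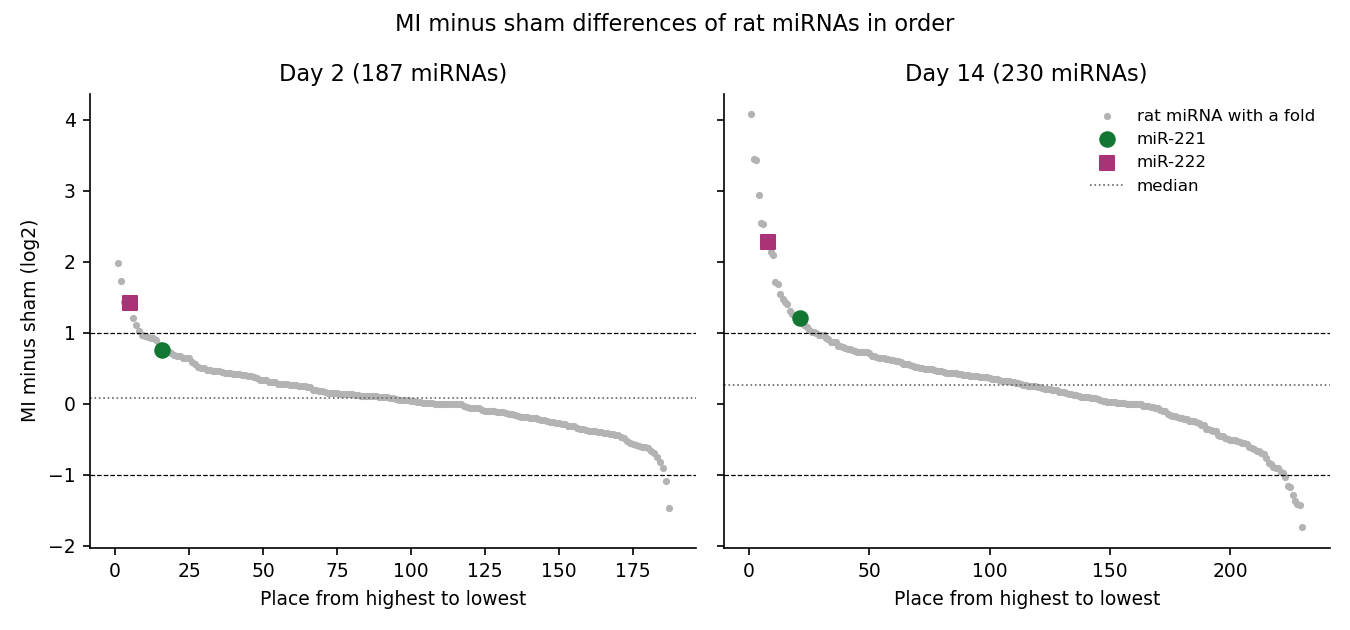
MI minus sham log2 difference of each rat miRNA with a fold or bound, from highest to lowest (187 at day 2, 230 at day 14), with dashed lines at 2-fold and a dotted line at the median. miR-222 is 5th and 8th and miR-221 is 16th and 21st.

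Over both days together, 131 rat miRNAs had a fold or bound on each day, 26 of them matched between the array generations by name because their probe identifier had changed. At least 2-fold higher on both days were 7 of the 131: miR-142-3p, miR-15b, miR-193, miR-21, miR-222, miR-223 and miR-31. Of the 131, only miR-21 stood above miR-222 on both days (a bound of 1.44 and 3.45), and 7, miR-222 included, stood above miR-221 on both.

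The miRNAs whose differences lay nearest to the mean of the pair (1.09 at day 2 and 1.75 at day 14) by Euclidean distance over these 2 values were miR-142-5p, miR-193, miR-195, miR-34a and miR-15b. miR-142-5p, a leukocyte miRNA, was nearest, at 0.83 and at least 1.48 (distance 0.37). miR-193 was at 1.43 and 2.14 (distance 0.52). miR-195 was at 0.69 and 1.31 (distance 0.59), miR-34a, a p53-induced miRNA, at 0.74 and 1.26 (0.59), and miR-15b at 1.02 and 1.11 (0.64). The day 2 spot SE was 0.09 for miR-142-5p and from 0.54 to 0.93 for the other 4, wider than the steps in distance among those 4, against SEs from 0.02 to 0.08 at day 14. The distances rest on bounds at day 14 for both members and for miR-142-5p.

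The 5p arms come from the same hairpins and were not used in choosing the members. miR-221* was dim. At day 14 its sham foregrounds ran from 77 to 137 over backgrounds from 80 to 92, with 0 of 4 spots detected, and its MI foregrounds from 230 to 276 over backgrounds from 81 to 112, with 3 of 4 detected. Its levels were 7.05 ± 0.24 and 8.10 ± 0.11, and all MI spots lay above all sham spots. The difference between the levels was 1.06 (SE 0.13). The MI level exceeded sham at least 1.82-fold (log2 0.87), a bound under the 2-fold rule that placed miR-221* 36th of 230.

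At day 2 the probe with the same identifier as miR-221* was named for human only. It was detected in 0 of 4 sham spots and 3 of 4 MI spots, with levels of 8.14 ± 0.80 and 8.95 ± 0.21. The difference between the levels was 0.81 (SE 0.41), and the MI level exceeded sham at least 1.40-fold (log2 bound 0.48). Sham and MI spots overlapped there. Without normalization, with centred arrays and with spike-in scaling this bound was 0.

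miR-222*, the other arm of the Mir222 hairpin, was not detected on any array on which it was printed. At day 14 the rat probe had levels of 7.07 ± 0.11 in sham and 7.06 ± 0.07 in MI, and a probe for the human and mouse form had 6.96 ± 0.81 and 6.73 ± 0.06. At day 2 a probe for the human form had 7.88 ± 0.42 and 7.84 ± 0.36. Not detected means not above background by this rule and gives no fold.

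Agreement inside the pair was set beside that inside 26 other miRNA clusters and hairpins, a list written with earlier results of these data known. At day 2, 19 of them had at least 2 measured members. The spread between the highest and the lowest log2 difference was 0.66 for miR-221 and miR-222, and from 0.06 to 0.97 with a median of 0.46 for the others, of which 15 were closer. The 0.66 includes the dim spot set, without which the gap of the pair was 0.31. The other clusters were not computed without that set. With the median of the spots the pair was at 0.40 and the median of the others at 0.27, with 12 of 19 closer. All members stood above 0 in 8 of the 19 and past 2-fold in 0.

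At day 14, 23 other clusters had at least 2 measured members. The spread was 1.08 for miR-221 and miR-222 and from 0.09 to 1.93 with a median of 0.45 for the others, of which 20 were closer and 3 wider. The 1.08 is a difference of 2 bounds, while most of the other clusters held none, so its place among them is a description of these values and not of known sizes. In 12 of the 23 all members stood above 0. Past 2-fold in the same direction throughout, as miR-221 and miR-222 were, were 5 of the 23: miR-195 with miR-497, miR-142-3p with miR-142-5p, miR-1 with miR-133a (lower), miR-34b with miR-34c, and miR-199a-5p with miR-199a-3p and miR-214. Members of a cluster are read on the same arrays and are not independent of each other.

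**Figure D4:**
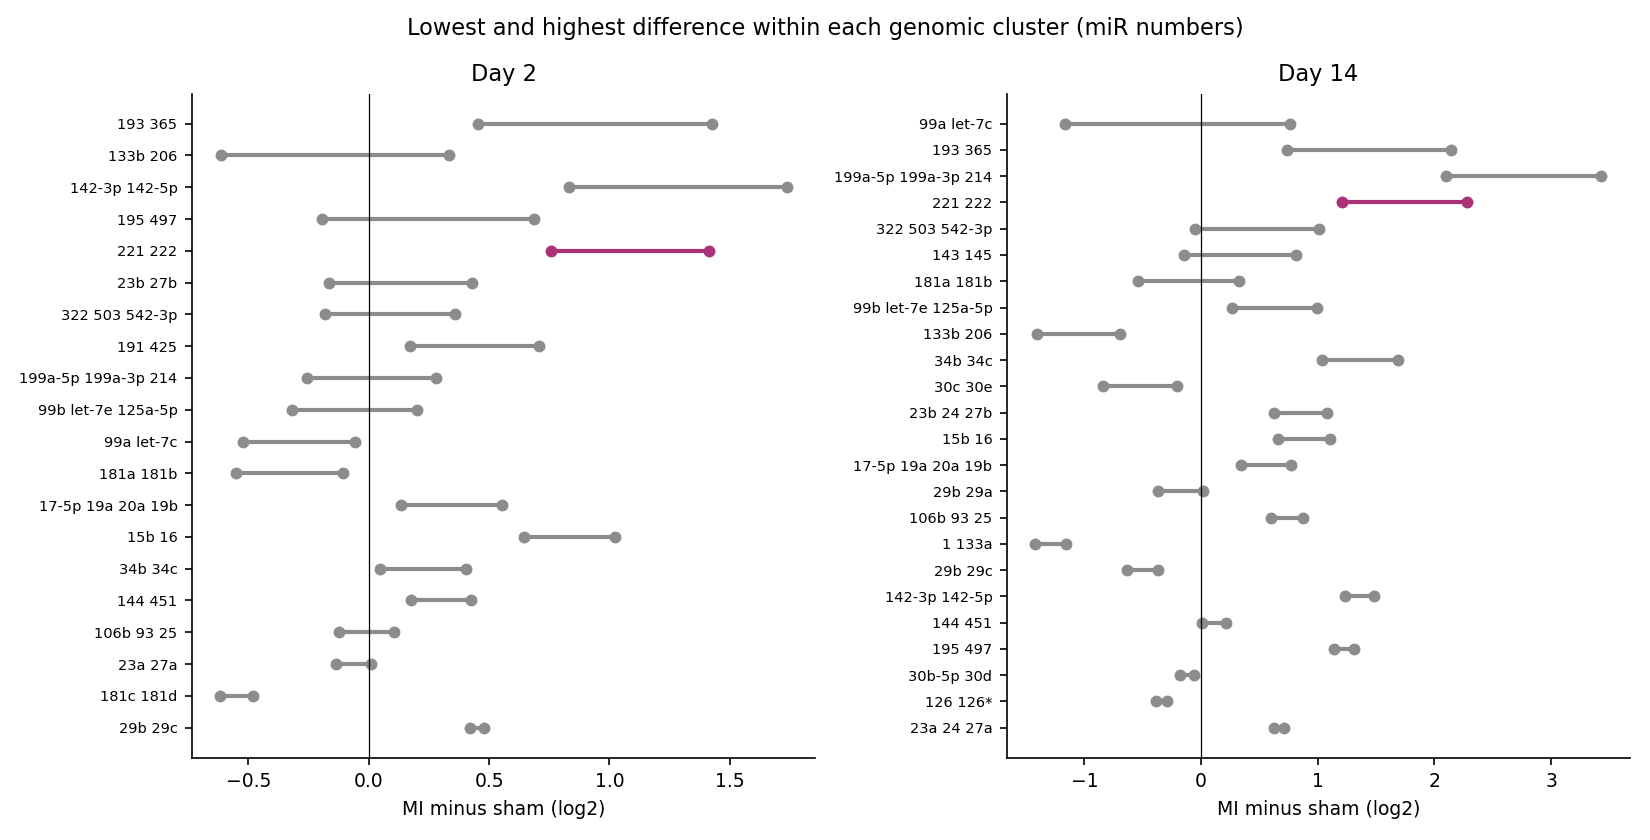
Lowest and highest MI minus sham log2 difference within each cluster or hairpin with at least 2 measured members, ordered by spread, with miR-221 and miR-222 in colour. Its spread of 0.66 at day 2 and 1.08 at day 14, the latter between bounds, lies among the wider ones, and both of its ends lie above 0. The 0.66 includes the dim spot set, without which the gap of the pair was 0.31.

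Of a list of 25 other miRNAs described in the vessel wall, also written with earlier results known, 16 had a fold at day 2. Past 2-fold higher were miR-21, an injury-induced miRNA (bound 1.44, its MI spots being saturated), and miR-10a-5p (1.10, SE 0.86), and 0 were past 2-fold lower. The median of the list was 0.20 against 0.09 for all rat miRNAs with a fold. Of these 187, 8 (4.28%) were past 2-fold higher and 2 (1.07%) lower. At day 14, 22 had a fold, 3 were at least 2-fold higher (miR-21 at 3.45, miR-34a at 1.26 and miR-27b at 1.08) and 1, miR-133a, was lower at -1.42. The median was 0.43 against 0.26 for all. Of all 230 rat miRNAs with a fold at day 14, 27 (11.7%) were at least 2-fold higher and 8 (3.48%) lower. Nothing is read from the counts of the list. Of the 22, only miR-21 stood above miR-222 at day 14, and only miR-21 and miR-34a stood above miR-221.

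miRNAs that mark cell types of the heart are set beside the pair, and their part in its differences was not tested. Smooth muscle miR-145 was at -0.06 at day 2 and -0.15 at day 14, and miR-143 was saturated at day 2 and at 0.81 at day 14. At day 2 the intensity of miR-145 was 6628 in sham and 6373 in MI, and no sum is given with the saturated miR-143. At day 14 their summed intensity was 14180 and 24076. For the endothelium, miR-126* was at 0.11 at day 2 and -0.39 at day 14, while miR-126 was saturated at day 2 and at -0.29 at day 14. The intensity of miR-126* at day 2 was 8480 in sham and 9127 in MI, and the sum of both miRNAs at day 14 was 19711 and 16029.

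The 3 fibroblast miRNAs (miR-199a-5p, miR-199a-3p and miR-214) were between -0.25 and 0.28 at day 2 and between 2.10 and 3.43 at day 14. Their summed intensity was 9887 in sham and 9191 in MI at day 2 and 2392 and 18187 at day 14. The 4 leukocyte miRNAs (miR-223, miR-142-3p, miR-142-5p and miR-150) were between 0.83 and 1.99 at day 2, with 2 past 2-fold. At day 14, 3 were past 2-fold higher and miR-150, of lymphocytes, was lower, over a range from -1.74 to 1.72. Their summed intensity was 16842 and 49551 at day 2 and 9130 and 12256 at day 14.

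Of the 5 heart muscle miRNAs, 3 were saturated at day 2 and the other 2 were at 0.33 and 0.51. At day 14, 4 of the 5 were past 2-fold lower, over a range from -1.42 to -0.66, and the summed intensity of the 5 was 40201 in sham and 16427 in MI. Outside this list, miR-208b-3p was at 2.55 at day 14, while miR-133a*, miR-208* and miR-499* were at -0.90, -1.03 and -0.61. The erythroid miR-451 and miR-144 were between 0.01 and 0.42 on both days. No marker was at 0 on any array, and all were detected on all arrays except miR-142-5p in the day 14 sham pool.

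The size of the differences moved with the background correction, the scaling and the detection limit. At day 2 miR-222 lay between 0.94 and 2.06 over 15 alternatives and was past 2-fold in 14, the exception being no normalization between the arrays. miR-221 lay between 0.17 and 1.13 and was past 2-fold in 1, with local background subtracted. At day 14 miR-222 was past 2-fold in 15 of 15 (1.73 to 3.37) and miR-221 in 13 of 15 (0.49 to 2.44), not with centred arrays (0.49) nor with detection at 3 background SDs (0.87). Relative to the median of the rat miRNAs detected on both arrays, which itself moved with the scaling, miR-221 was 0.67 above at day 2 (0.55 to 0.93 over the alternatives) and 0.97 above at day 14 (0.63 to 2.21). miR-222 was 1.33 above at day 2 (1.15 to 1.88) and 2.05 above at day 14 (1.93 to 3.07).

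The authors' deposited table of log2 values, whose processing no header or label states, holds both members in each column. In the authors' deposited table miR-221 went from 9.24 in sham to 9.86 in MI at day 2 and from 5.75 to 7.79 at day 14. In the authors' deposited table miR-222 went from 9.41 to 11.17 and from 6.62 to 9.53. Differences in it were therefore 0.62 and 2.04 for miR-221 and 1.77 and 2.91 for miR-222, on a scale with slopes from 1.15 to 1.40 against the scanner values.

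**Figure D5:**
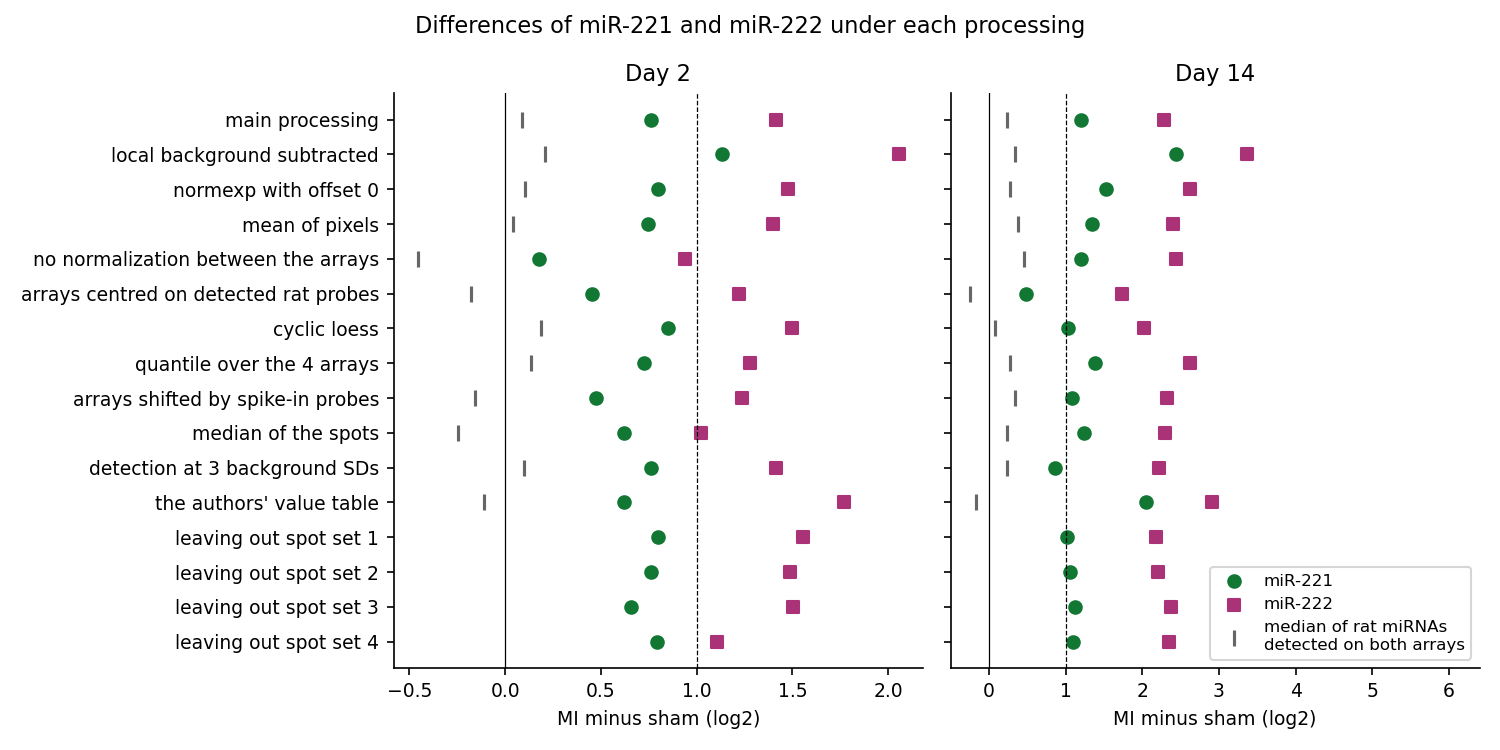
MI minus sham log2 difference of miR-221 and miR-222 in the main processing and under each of 15 alternatives, with the median of the rat miRNAs detected on both arrays as a grey tick where it was computed and a dashed line at 2-fold. Each of the plotted values of both members lies above 0, and miR-222 lies to the right of miR-221 in each row. The day 14 values of the members are bounds, which cannot fall below 0 by their rule.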

How the data were processed

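Total RNA labelled with Hy3 was hybridized to miRCURY LNA arrays, per the labels' protocols. Spot and local background intensity values were deposited as quantified by Mapix 4.5.0, per the file headers. The day 2 arrays are version 11.0 (names of miRBase 12.0) and the day 14 arrays generation 6 (miRBase 16.0), per the file headers. The authors also deposited a value table in log2, with unknown background correction and centring. Its Spearman correlations with the scanner values over detected rat probes were from 0.985 to 1.00. Its column medians were 6.36 at day 2 and 4.70 at day 14. Its lowest values, 0.72, 0, 0 and 0.08, were held by 110, 38, 64 and 90 rat probes and carry no order. Each column is 1 array, so the direction of a difference is known.

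Groups follow the sample titles, since the protocol text of every sample describes a day 2 sham operation. Normexp in limma 3.58.1 (R 4.3.3, offset 50) was fitted on every spot, using median foreground and median local background. Quantile normalization took the day's pair of arrays without control spots, and the log2 values of a probe's 4 spots were averaged. Detection of a spot required a foreground more than 2 background SDs above its background, and detection of a probe required 50% or more of its spots. At day 2, 166 rat probes were detected in sham and 199 in MI, and at day 14, 173 and 214. Saturation meant 50% or more of the spots at 65535. Signal over background and the number of arrays limit the precision. The calculation was tested on simulated data, scoring only probes detected on both arrays. The simulation held neither a dim spot set nor a difference in background between the arrays, and it did not cover bounds. Signal shared between probes of similar sequence was not corrected. The members and lists were chosen with earlier results of these data known. Named are the members, the other arms of their hairpins, the 5 nearest miRNAs, the neighbours in the order, the markers with those set beside the heart muscle list, the clusters and those of the vascular list past 2-fold. Alternatives changed the background correction, pixel and spot summary, normalization, detection limit and source of values.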

Additional observations from a re-analysis of the deposited data

How the results depend on the processing

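No paired analysis was possible because each group has 1 array. At day 2 neither miR-221 nor miR-222 changed its sign under the alternatives, and the gap between them stayed above 0 on both days. The day 14 values of the members are bounds, which cannot fall below 0 by their rule, so nothing is read from their sign. The day 2 levels of miR-221* went from 8.14 in sham and 8.95 in MI to 8.73 and 8.46 without normalization, where its bound was 0. With local background subtracted, miR-221 was at 1.13 at day 2 and 2.44 at day 14, miR-222 was at 3.37 at day 14, and 56 and 80 rat miRNAs were past 2-fold against 10 and 35. With a normexp offset of 0, miR-221 was at 1.53 and miR-222 at 2.62 at day 14, and 16 rat miRNAs were past 2-fold at day 2. Without normalization miR-221 was at 0.17 at day 2 and 27 rat miRNAs were past 2-fold. Centring each array on the median of the rat probes detected on both arrays put miR-221 at 0.49 and miR-222 at 1.73 at day 14. Cyclic loess put them at 1.03 and 2.02 at day 14. Under 4-array quantile normalization, which kept only probe identifiers found on both array generations, they were at 1.39 and 2.63. There 5 of 148 rat miRNAs with a fold were past 2-fold at day 2, against 10 of 187 in the main processing. With detection at 3 background SDs miR-221 was at 0.87 at day 14, because the lowest detected level of the sham array, which sets its bound, was higher, and the gap between the members was 1.35. In the authors' value table miR-221 was at 2.04 and miR-222 at 2.91 at day 14, and 44 and 67 rat miRNAs were past 2-fold. Leaving out each spot set in turn gave 0.66 to 0.80 for miR-221 and 1.10 to 1.56 for miR-222 at day 2, and 1.01 to 1.13 and 2.19 to 2.38 at day 14; the gap was 0.31 to 0.85 and 1.13 to 1.26. With a spot set left out, the difference between the day 14 levels of miR-221 was 1.16 to 1.24. Its bounds were lower because the lowest detected level of the sham array then lay above its sham level. The cause of the other shifts was not tested.

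Higher and lower calls at day 2 were 8 and 2 in the main processing, 4 and 23 without normalization (median of miRNAs detected on both arrays -0.46), 5 and 10 after centring (-0.18) and by spike-in scaling (-0.16), 12 and 1 under cyclic loess (0.19), 4 and 3 with the median of spots (-0.25), and 25 and 19 in the authors' value table. At day 14 they were 27 and 8 in the main processing (0.24), 42 and 1 without normalization (0.46), 16 and 31 after centring (-0.25), 21 and 13 under cyclic loess (0.09), 36 and 4 with spike-in scaling (0.34), and 39 and 28 in the authors' value table. Clusters closer than the pair numbered 10 to 15 at day 2 and 16 to 21 at day 14. The alternatives for the clusters and the following ones for the vascular list and miR-221* were added after seeing the data. Vascular miRNAs past 2-fold, 2 at day 2 and 4 at day 14, numbered 1 and 10 without normalization, 1 and 2 after centring, 0 and 1 under 4-array quantile normalization, 1 and 8 with spike-in scaling, and 1 with the median of spots at day 2. miR-221* ran from 0 to 1.96 at day 2 and from 0.07 to 3.73 at day 14, where it was at 1.45 for offset 0, 0.072 after centring, 0.40 for 3 background SDs, 2.22 in the authors' value table, and 0.54 and 0.57 without spot set 1 or 2.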
